A study of Lactuca sativa with 20 samples.

Results

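Of 37828 lettuce gene models, 111 had lower transcript levels in seedlings given the peptide CLE12p while staying near the control level in seedlings given ABA or ACC. These 111 genes were chosen from the measured values themselves. Each library's counts were divided by the library total to give CPM (counts scaled to the same library total), group means were set on the scale log2(mean CPM + 1), and the 5 control libraries (2 of ethanol and 3 of water) were pooled. A gene was a member if its mean over the 20 libraries was at least 1 CPM, its CLE12p mean lay at least 0.4 below the controls, its ACC and ABA means lay within 0.3 and 0.4 of them, and each of the 3 CLE12p libraries was below every control library. The level of a member in CLE12p, in ABA, in ACC and in the controls is therefore a description, and the 6 libraries that combined the peptide with a hormone entered the choice only through the mean over 20 libraries.

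The material was whole seedlings of *Lactuca sativa*, variety Little Gem, 4 days old, held for 2 h in solution before RNA was taken. The 7 groups received CLE12p with ABA, CLE12p with ACC, CLE12p, ABA, ACC, ethanol, or water, with 3 libraries each except ethanol with 2. Peptide and hormones were at 10 µM each, and ethanol was at 0.02%. For 1 combination the design text of the series reads ABA with ACC where the sample labels read CLE12p with ACC, which is the name used below. Neither source states whether ethanol was present in the ABA solutions or whether replicates came from separate batches of seedlings, so p-values measure the spread between libraries, which may be technical.

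CLE peptides are short signalling molecules that plant cells secrete after they are cut from longer precursors and read by receptor kinases at the cell surface, and they are best known for setting the size of meristems. The series title links the LsCLE12 peptide to delayed senescence. ABA (abscisic acid) is the hormone of drought and seed dormancy, bound by soluble receptors that then inhibit protein phosphatases. ACC (1-aminocyclopropane-1-carboxylic acid) is the direct precursor of ethylene, a gas that promotes ripening and senescence. The count table pairs its identifiers with no gene names, and 0 of them matched the reference gene table, so members are given by identifier and their functions are not described. The tissue label could not be checked against marker genes for the same reason.

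Library totals ran from 18614220 to 27101622 counts. None of the 19 within-group pairs of libraries looked like a library deposited again, since their chi-square per degree of freedom lay between 3.59 and 24.9. CLE12p replicate 2 stood apart from the other 2 CLE12p libraries. When the rule was applied without it, 443 genes qualified in place of 111, whereas 147 qualified without CLE12p replicate 1 and 174 without replicate 3. Across all genes with a mean of at least 1 CPM, 43.1% lay below the control mean in CLE12p replicate 2, against 58.1% in replicate 1 and 56.0% in replicate 3. Replicate 2 also had a TMM factor (a scaling factor for library composition) of 1.03, against 0.969 in replicate 1 and 0.975 in replicate 3. The rule uses library totals without these factors, and how far this offset enters the counts for replicate 2 was not tested.

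Members were lower by a small margin. On the log2(mean CPM + 1) scale the difference between CLE12p and the controls ran from -0.80 to -0.40 with a median of -0.48, and it was -0.6 or less in 15 members. The limit lay in a dense part of the distribution, since 43 of the 111 members were within 0.05 of it. Just inside was Lsat_1_v5_gn_7_30260 at -0.40, with means of 1.57 CPM in CLE12p, 2.10 CPM in ethanol and 2.58 CPM in water. Just outside, at -0.398, was Lsat_1_v5_gn_5_152061, with 5.15 CPM in CLE12p, 6.55 CPM in ethanol and 7.47 CPM in water. The highest CLE12p library reached a median of 0.899 of the lowest control library, and in 28 members it reached more than 0.95 of it, so the separation that the rule demands was often narrow. Most members were of modest abundance. Their mean over all libraries had a median of 5.30 CPM, with 48 members under 5 CPM and 13 at 20 CPM or more. CPM is not divided by transcript length, so it ranks shares of reads and not numbers of transcripts.

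Within the limits of the rule, most members lay below the controls in ACC and in ABA as well. The ACC mean was below the control mean in 91 of 111 members (median difference -0.15) and the ABA mean in 68 (median -0.05). The same medians over all 20479 genes with a mean of at least 1 CPM were -0.02 for ACC and 0.0034 for ABA. The rule used all of these values and required the controls to be high. The counts and medians are therefore descriptions, and nothing is read from them against all genes.

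The level of the whole list was followed library by library as the median over the 111 members of log2(CPM + 1) minus the mean of the 5 controls. With CLE12p and ABA it was -0.13, -0.23 and -0.14, and with ABA alone it was 0.0034, -0.03 and -0.03. With CLE12p and ACC it was -0.35, -0.39 and -0.47, and with ACC alone -0.11, -0.18 and -0.12. CLE12p alone gave -0.48, -0.43 and -0.52, as the rule requires. Each combination thus lay below its hormone with no overlap of libraries, and the libraries of CLE12p with ACC stood lower than those of CLE12p with ABA. Over all genes with a mean of at least 1 CPM, the medians with CLE12p and ABA were -0.02, -0.01 and 0.03. With CLE12p and ACC they were -0.01, -0.03 and -0.06. The rule held ABA and ACC near controls that were required to be high, so these positions are descriptions. In reads, the 111 members together took 1224 ± 61.1 CPM in CLE12p with ABA, 948 ± 25.0 in CLE12p with ACC, 923 ± 52.1 in CLE12p, 1384 ± 9.59 in ABA, 1202 ± 27.5 in ACC and 1325 ± 40.3 in water (SD, n = 3 each), and 1342 ± 5.50 in ethanol (SD, n = 2). These sums weigh the most abundant members most. Lsat_1_v5_gn_4_4161 alone had a mean of 282 CPM in ABA, 214 CPM in water and 157 CPM in CLE12p. In whole seedlings, fewer cells that express a gene and less RNA of it per cell cannot be told apart.

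**Figure D1:**
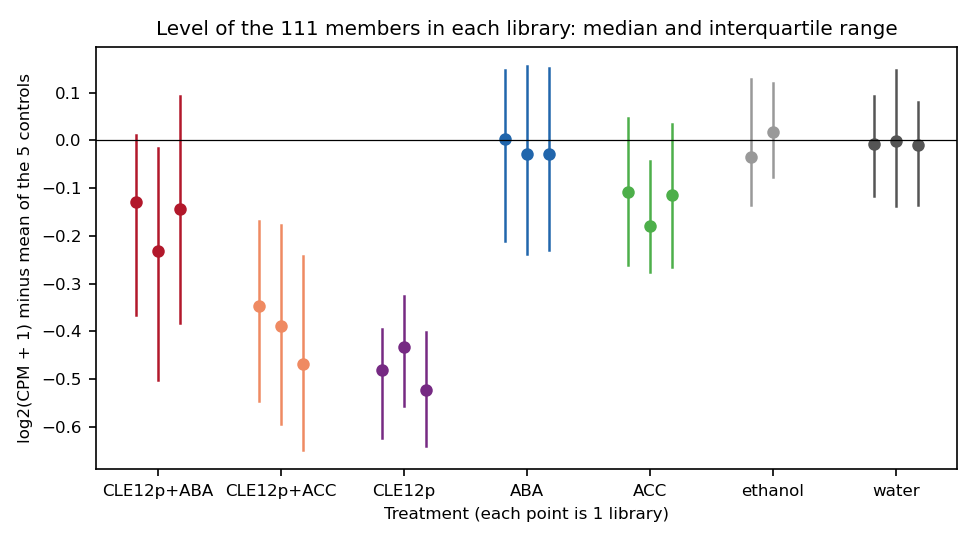
Median (point) and interquartile range (bar) over the 111 members of log2(CPM + 1) minus the mean of the 5 control libraries, 1 point per library, by treatment. The 3 libraries of CLE12p with ACC lie between -0.47 and -0.35 and those of CLE12p with ABA between -0.23 and -0.13, each below its own hormone. The low position of CLE12p alone follows from how the genes were chosen. The positions of ABA and ACC alone were also held near the controls by that choice.

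Single members spread widely around these medians in the combinations. With CLE12p and ACC the group mean was below the control mean in 109 members (beside 57.0% of all genes tested), and it was nearer to the CLE12p mean than to the control mean in 85. With CLE12p and ABA the mean was below the controls in 79 members (beside 50.2% of all genes tested) and nearer to CLE12p in 48, and 32 members had a mean above the controls. Every library of CLE12p with ACC was below every control library in 50 members, as in 12.0% of all genes tested, and every library of CLE12p with ABA in 30, as in 10.7%. The CLE12p and control values in these counts are those that the rule used, with the controls required to be high, so the counts are descriptions and nothing is read from them against the shares of all genes.

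**Figure D2:**
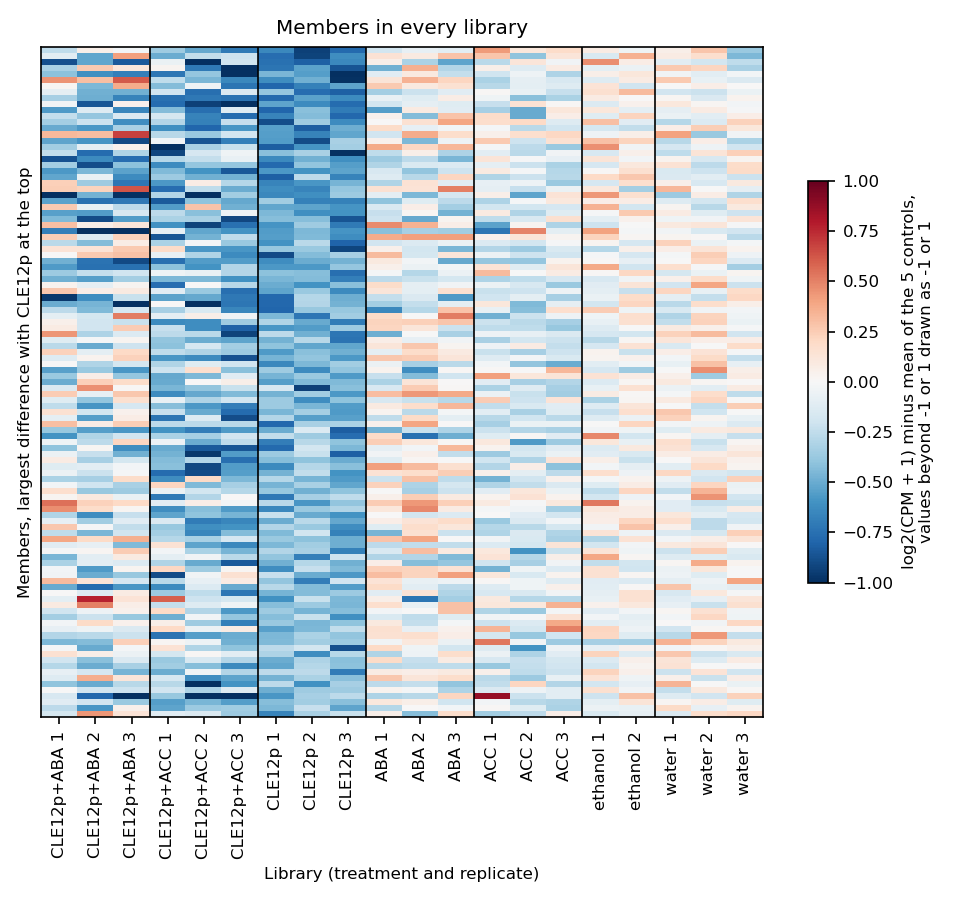
Each row is 1 of the 111 members, ordered by the size of the difference with CLE12p, and each column 1 library. Colour gives log2(CPM + 1) minus the mean of the 5 controls, blue for lower and red for higher. The columns of CLE12p with ACC are blue in nearly every row, and those of CLE12p with ABA hold rows of both colours.

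CLE12p against water was the contrast closest to the rule, and its counts are given only as a description. All 111 members had a log2 fold change below 0 (median -0.56, from -1.26 to -0.24), and 33 were called lower at an adjusted p below 0.05, where 0.991% of all 23413 genes tested were. The other 78 members met the rule without passing this test. Lsat_1_v5_gn_3_11301 had the lowest fold change, with 0.752, 0.760 and 0.205 CPM in CLE12p against 1.39, 1.50 and 1.33 CPM in water, a log2 fold change of -1.26 ± 0.45 (SE; edgeR adjusted p = 0.12). In this gene CLE12p replicate 3 was far below the other pair, with 4 counts. Lsat_1_v5_gn_5_129701 followed with 0.806, 0.929 and 0.102 CPM in CLE12p against 1.02, 1.64 and 1.84 CPM in water (-1.25 ± 0.54; adjusted p = 0.212), and CLE12p replicate 3 held 2 counts of it. The largest fold changes therefore stood in genes of few counts. The number called was 14 without water replicate 1, 13 without water replicate 2, 14 without CLE12p replicate 1 and 10 without CLE12p replicate 3. The share of all genes called lower fell with it, to 0.441%, 0.393%, 0.513% and 0.410% in the same order.

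As a description, the level of each CLE12p library was also read in genes chosen without it. When the rule was applied without CLE12p replicate 1, this library was below the control mean in 135 of the 147 genes chosen (91.8%, against 58.1% of all genes with a mean of at least 1 CPM), with a median of -0.31. For CLE12p replicate 3 it was 138 of 174 genes (79.3%, against 56.0%), with a median of -0.26. For CLE12p replicate 2 it was 276 of 443 genes (62.3%, against 43.1%), with a median of -0.09. In the libraries that did the choosing the medians lay between -0.49 and -0.47, as the rule requires of them. A smaller shift in the library left out therefore follows at least in part from the choice. That shift was smallest for CLE12p replicate 2. The controls were used in every choice and were required to be high. The shares below the control mean are therefore descriptions, and nothing is read from them against the shares of all genes.

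Beside ABA, the peptide lowered 6 of the 111 members and raised 0. This is 5.41% of the list called lower, where 1.28% of all genes tested were called lower. The list had a median log2 fold change of -0.17 for CLE12p with ABA against ABA (interquartile range -0.38 to 0.06), beside 4.9e-06 for all genes tested. The fold change was below 0 in 78 members (70.3%), beside 50.0% of all genes tested. In 30 members (27.0%) every library of CLE12p with ABA was below every ABA library, as in 12.5% of all genes tested. At an unadjusted p below 0.05, 30 members were lower and 1 higher (27.9% of the list, beside 17.9% of all genes tested). Among all genes tested, 2.65% were called higher at the adjusted threshold. The ABA libraries, 1 arm of this comparison, entered the rule through its distance limit. These shares, here and in the fits below, therefore rest in part on values that the rule used and are descriptions.

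Lsat_1_v5_gn_2_76320 had the lowest fold change of those 6. It had 0.605, 0.412 and 0.413 CPM in CLE12p with ABA, against 1.45, 1.28 and 1.33 CPM in ABA. The libraries did not overlap, and the log2 fold change was -1.49 ± 0.38 (SE; edgeR adjusted p = 0.0262). Its counts were low, from 9 to 14 per library of the combination. The call was lost when any single ABA library, or replicate 2 or 3 of CLE12p with ABA, was left out (adjusted p from 0.0644 to 0.137). Lsat_1_v5_gn_4_107160 followed, with 6.40, 5.17 and 6.01 CPM in CLE12p with ABA against 11.0, 8.76 and 7.73 CPM in ABA (-0.64 ± 0.17; adjusted p = 0.0329). Its first ABA library was the high one, and without ABA replicate 1 the change was -0.48 (adjusted p = 0.202). The call was also lost without ABA replicate 2 (0.0761), without replicate 2 (0.181) or 3 (0.0716) of CLE12p with ABA, and with only the compared libraries in the fit (0.0538).

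The count beside ABA rested on single libraries. Leaving out replicate 1, 2 or 3 of ABA in turn left 1, 0 and 3 members called, and leaving out replicate 2 or replicate 3 of CLE12p with ABA left 1 each. The share of all genes called lower in those fits also fell, to between 0.265% and 1.11%. In a fit of these 6 libraries alone, 2 members were called (1.80%), at the share of all genes called lower in that fit (1.82%). The median of the list was less dependent on single libraries and stayed between -0.21 and -0.11.

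Beside ACC, the peptide lowered 13 of the 111 members and raised 0. This is 11.7% of the list called lower, where 1.73% of all genes tested were called lower and 3.26% higher. The median log2 fold change for CLE12p with ACC against ACC was -0.30 (interquartile range -0.48 to -0.15), beside 0.0017 for all genes tested. It was below 0 in 101 members (91.0%), beside 49.6% of all genes tested. In 45 members (40.5%) every library of CLE12p with ACC was below every ACC library, as in 11.9% of all genes tested. At an unadjusted p below 0.05, 42 members were lower and 0 higher (37.8%, beside 16.1% of all genes tested). The 13 called members changed by -1.22 to -0.51 on the log2 scale, with means over all libraries between 2.92 and 56.3 CPM. As with ABA, the ACC libraries entered the rule through its distance limit. The shares beside ACC, here and in the fits below, thus rest in part on values that the rule used and are descriptions.

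Lsat_1_v5_gn_4_99701 had the lowest fold change beside ACC. It had 3.13, 2.67 and 1.79 CPM in CLE12p with ACC, against 4.99, 6.75 and 6.09 CPM in ACC, with no overlap (-1.22 ± 0.23; adjusted p = 0.0024). This call held without each single library of the comparison (adjusted p from 0.00269 to 0.0218). Lsat_1_v5_gn_5_190420 had 6.21, 3.53 and 3.53 CPM in CLE12p with ACC, against 16.1, 7.05 and 7.71 CPM in ACC (-1.20 ± 0.31; adjusted p = 0.023). The first ACC library was more than double the other pair, and without ACC replicate 1 the change was -0.72 (adjusted p = 0.218). The call was also lost without replicate 2 (adjusted p = 0.117) or 3 (0.109) of CLE12p with ACC.

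The count beside ACC was 6 without ACC replicate 1 or replicate 2, and 8 without ACC replicate 3. Leaving out replicate 2 of CLE12p with ACC gave 7, and leaving out its replicate 3 gave 5. In those fits 0.641% to 1.13% of all genes were called lower. With only the 6 libraries compared it was 8 (7.21%), where 2.01% of all genes were called lower. The median stayed between -0.33 and -0.28 without single libraries.

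Both backgrounds together called 17 members lower and left 94 uncalled. Of all genes tested, 1.28% were called lower beside ABA and 1.73% beside ACC. Lsat_1_v5_gn_5_83241 and Lsat_1_v5_gn_4_111840 were called beside both hormones, which is 33.3% of the list beside ABA and 15.4% of the list beside ACC. The share of all genes called lower beside both is not given here, so nothing is read from this overlap. Lsat_1_v5_gn_5_83241 had 9.90, 8.74 and 7.61 CPM in CLE12p with ABA against 12.0, 11.6 and 13.4 CPM in ABA (-0.49 ± 0.13; adjusted p = 0.0325). In CLE12p with ACC it had 7.18, 7.34 and 7.22 CPM against 12.3, 9.22 and 9.97 CPM in ACC (-0.51 ± 0.13; adjusted p = 0.0212). No library of either combination overlapped its hormone libraries. In CLE12p alone the gene had 6.98, 8.45 and 7.88 CPM against 12.9, 11.4 and 13.0 CPM in water, a separation that the rule requires.

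Lsat_1_v5_gn_4_111840 had 4.06, 3.80 and 4.72 CPM in CLE12p with ABA against 7.12, 5.75 and 6.03 CPM in ABA (-0.59 ± 0.16; adjusted p = 0.0467). It had 3.68, 3.15 and 3.77 CPM in CLE12p with ACC against 6.06, 4.94 and 5.23 CPM in ACC (-0.59 ± 0.17; adjusted p = 0.0405). In this gene too the libraries with and without the peptide were separate in both backgrounds. Its calls were lost without any single library of the comparison, at -0.65 to -0.48 beside ABA (adjusted p from 0.0542 to 0.226) and at -0.66 to -0.50 beside ACC (adjusted p from 0.0625 to 0.170). The calls of Lsat_1_v5_gn_5_83241 were lost without most single libraries, with adjusted p up to 0.142 beside ABA and 0.147 beside ACC. With only the compared libraries in the fit, both genes lost their calls beside ABA and beside ACC. The adjusted p was 0.0714 and 0.0617 for Lsat_1_v5_gn_5_83241, and 0.0807 and 0.0977 for Lsat_1_v5_gn_4_111840. Without the filter on low counts, Lsat_1_v5_gn_4_111840 also lost its calls (0.0580 and 0.0559).

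**Figure D3:**
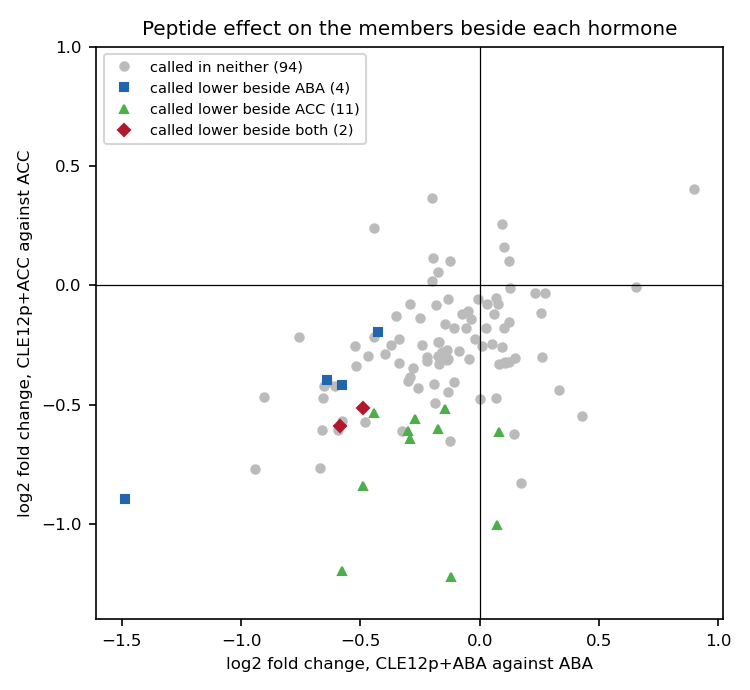
Log2 fold change of each member for CLE12p with ABA against ABA (horizontal) and for CLE12p with ACC against ACC (vertical), 1 point per gene. Of the 111 members, 72 lie in the lower left part of the plot, below 0 on both axes, and symbols mark the 4, 11 and 2 members called lower beside ABA, beside ACC and beside both.

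Most members were below 0 in both comparisons. With 78 members below 0 beside ABA and 101 beside ACC, a large overlap follows from these counts alone. No agreement gene by gene is therefore read from the number below 0 in both. In 72 (64.9%) the fold change was below 0 beside both hormones, beside 26.4% of all genes tested, and 29 were below 0 beside ACC and above 0 beside ABA. The reverse held for 6 members, and 4 were above 0 in both. The 2 comparisons have no library in common. Across the 111 members their fold changes had Pearson r = 0.42 and Spearman rho = 0.38, and across all 23413 genes tested 0.20 and 0.14. These values are across genes, which are not independent replicates, and the members share their choice by CLE12p and control libraries. The ABA and ACC libraries, 1 arm of each comparison, also entered the rule through its distance limits, so the shared signs and the correlation rest in part on values that the rule used.

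The fold change was lower beside ACC than beside ABA in 76 of 111 members. The rule held ACC within 0.3 and ABA within 0.4 of the controls, so the hormone arms of both fold changes were chosen under unequal limits, and this count and the median of the difference are descriptions. The test of that difference, the peptide's log2 fold change with ABA minus that with ACC, called 0 members, where 1.08% of all genes tested were called. At an unadjusted p below 0.05 there were 11 members (9.91%, beside 13.6% of all genes tested), 10 of them higher beside ABA. The median difference was 0.10, beside 0.0018 for all genes tested. The largest was that of Lsat_1_v5_gn_4_99701, at 1.10 ± 0.32 (adjusted p = 0.0962), which had 5.84, 2.88 and 6.23 CPM in CLE12p with ABA against 5.18, 5.61 and 5.46 CPM in ABA. Its second library of CLE12p with ABA was the low one. The difference was called in DESeq2 (adjusted p = 0.037), which called 2.20% of all genes in this test, and without CLE12p with ABA replicate 2 (1.39; adjusted p = 0.0338).

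CLE12p with ABA and CLE12p with ACC are the groups furthest from the rule, and they differed directly in 24 members (21.6%, where 22.2% of all genes tested were called in either direction). CLE12p with ABA was higher in 22 of them (19.8% of the list, where 10.4% of all genes tested were called higher) and lower in 2 (1.80%, where 11.7% were called lower). The median log2 fold change was 0.19, beside -0.0031 for all genes tested, and in 31 members (27.9%, beside 18.9% of all genes) every library of CLE12p with ABA was above every library of CLE12p with ACC. These 2 groups also differ in the hormone given. Of the 22 members, 20 also had a higher mean in ABA alone than in ACC alone, as had 70 of all 111. The rule held those ABA and ACC means under unequal limits, so these counts are descriptions. The contribution of the hormones to these calls was not tested apart.

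Lsat_1_v5_gn_8_102760 had 2.29, 2.24 and 3.30 CPM in CLE12p with ABA against 0.644, 1.33 and 0.974 CPM in CLE12p with ACC (1.36 ± 0.31; adjusted p = 0.00247). It stood at 0.806, 0.760 and 1.13 CPM in CLE12p alone and at 2.08, 2.05 and 2.94 CPM in ABA alone, a range that overlapped that of the combination with ABA. Lsat_1_v5_gn_9_30600 had 7.65, 6.82 and 8.71 CPM in CLE12p with ABA against 4.32, 3.62 and 3.04 CPM in CLE12p with ACC (1.04 ± 0.18; adjusted p = 1.72e-04). In CLE12p alone it had 3.12, 3.55 and 2.20 CPM, against 6.59, 5.01 and 4.74 CPM in water. The fold change of CLE12p with ABA against ABA was 0.26 ± 0.17 for this gene and did not pass the test (adjusted p = 0.471). Beside ACC neither gene passed the test, at -0.62 ± 0.32 for Lsat_1_v5_gn_8_102760 (adjusted p = 0.348) and -0.30 ± 0.18 for Lsat_1_v5_gn_9_30600 (adjusted p = 0.46), whose libraries overlapped those of ACC. Beside ABA the change of Lsat_1_v5_gn_8_102760 was 0.14 ± 0.29 (adjusted p = 0.85). The difference between the backgrounds did not pass for either gene (adjusted p = 0.453 for Lsat_1_v5_gn_8_102760 and 0.328 for Lsat_1_v5_gn_9_30600).

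The 2 members that were lower in CLE12p with ABA were Lsat_1_v5_gn_3_87201 and Lsat_1_v5_gn_1_126621. Lsat_1_v5_gn_3_87201 had 8.82, 10.6 and 9.58 CPM in CLE12p with ABA against 13.8, 14.2 and 16.1 CPM in CLE12p with ACC (-0.65 ± 0.11; adjusted p = 1.09e-04). It was also called lower beside ABA, with 13.0, 14.0 and 12.1 CPM in ABA (-0.43 ± 0.11; adjusted p = 0.0299), a call that was lost without ABA replicate 1 (adjusted p = 0.0995) or 2 (0.150), or when replicate 1 (0.0925) or 3 (0.0872) of CLE12p with ABA was left out. With only the compared libraries in the fit, the call beside ABA was also lost (adjusted p = 0.0743). Beside ACC the change of Lsat_1_v5_gn_3_87201 was -0.19 ± 0.11 (adjusted p = 0.388). Lsat_1_v5_gn_1_126621 had 1.90, 1.05 and 1.19 CPM in CLE12p with ABA against 3.40, 2.24 and 2.07 CPM in CLE12p with ACC (-0.92 ± 0.33; adjusted p = 0.0494). This call did not hold when replicate 2 (adjusted p = 0.166) or 3 (0.154) of CLE12p with ABA, or replicate 1 (0.212) or 2 (0.0628) of CLE12p with ACC, was left out. Nor did it hold with library totals (0.0586) or RLE factors, another kind of scaling factor (0.0505), in place of TMM factors. It was also lost with the replicate number as a block (0.0623) and with only the compared libraries in the fit (0.0837).

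**Figure D4:**
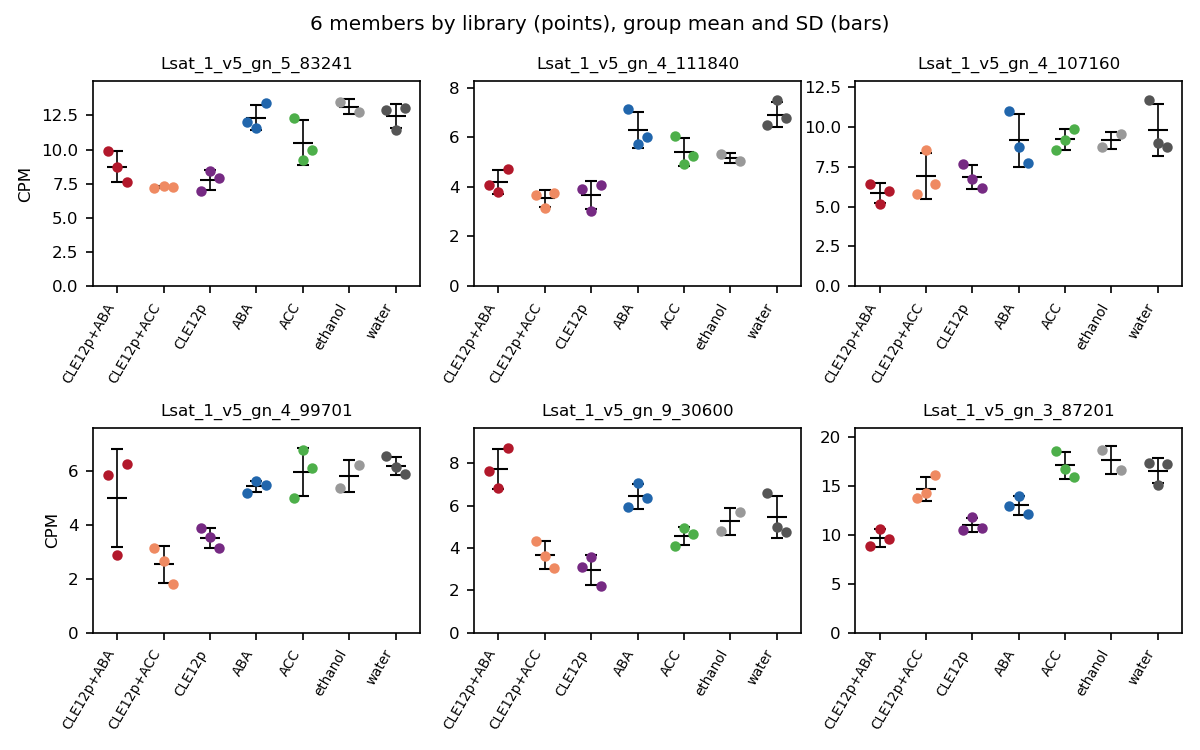
CPM of 6 members in each library (points) with the group mean and SD (bars), by treatment. Lsat_1_v5_gn_5_83241 and Lsat_1_v5_gn_4_111840 are low in both combinations, and in CLE12p alone as the rule requires of every member. Lsat_1_v5_gn_9_30600 is at 6.82 to 8.71 CPM in CLE12p with ABA against 3.04 to 4.32 CPM in CLE12p with ACC, and Lsat_1_v5_gn_3_87201 shows the opposite order.

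The 2 members with the most reads are given for their low counting error. Lsat_1_v5_gn_4_4161 had 259, 205 and 261 CPM in CLE12p with ABA against 269, 294 and 283 CPM in ABA (-0.22 ± 0.11; adjusted p = 0.274). In CLE12p with ACC it had 140, 152 and 160 CPM against 208, 186 and 171 CPM in ACC (-0.30 ± 0.11; adjusted p = 0.123). The libraries were separate in both cases, though neither change passed the test. Between the combinations it was higher in CLE12p with ABA (0.64 ± 0.11; adjusted p = 1.04e-04). Lsat_1_v5_gn_3_36601 had 49.3, 58.1 and 53.2 CPM in CLE12p against 78.6, 71.0 and 71.6 CPM in water (-0.44 ± 0.08; adjusted p = 0.00169). Beside the hormones its changes were -0.11 ± 0.08 with ABA (adjusted p = 0.535) and -0.18 ± 0.08 with ACC (adjusted p = 0.269), where its levels in ABA alone (58.3 to 59.5 CPM) and ACC alone (54.3 to 61.9 CPM) already lay below those in water.

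A list built by the mirrored rule, with every CLE12p library above every control and the same limits for ACC and ABA, held 267 genes. Of these 267, 111 (41.6%) were called higher beside ABA and 141 (52.8%) beside ACC, where 2.65% and 3.26% of all genes tested were called higher. Of the 111 lower members, 5.41% and 11.7% were called in their own direction. The mirrored list also held larger differences, with a median log2 fold change of 0.67 for CLE12p against water and -0.56 for the lower members, and the contrast between the lists was not tested. Both rules also used the ABA and ACC libraries, so these shares are descriptions.

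**Figure D5:**
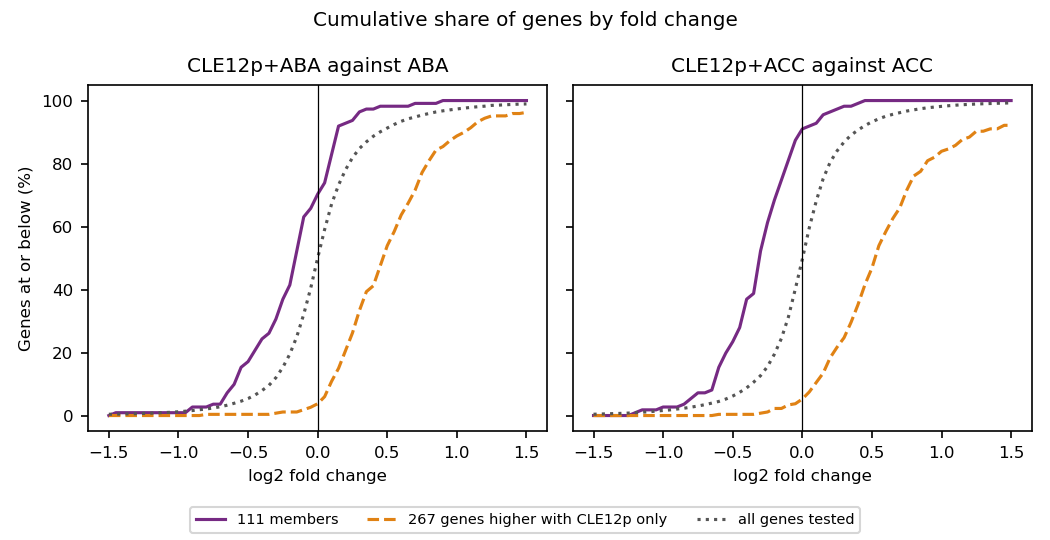
Cumulative percentage of genes at or below each log2 fold change, for CLE12p with ABA against ABA (left) and CLE12p with ACC against ACC (right). The 111 lower members (solid) lie left of all genes tested (dotted) with medians of -0.17 and -0.30, and the 267 genes of the mirrored list (dashed) lie right of them with medians of 0.48 and 0.53.

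The list was also divided, as a description, by the size of the difference in CLE12p, by abundance and by the hormone level. The 47 members at -0.5 or less had medians of -0.27 beside ABA and -0.41 beside ACC, and the other 64 had -0.12 and -0.28. By abundance the medians were -0.16, -0.16 and -0.17 beside ABA and -0.29, -0.30 and -0.31 beside ACC for members under 5 CPM, from 5 to under 20 CPM, and at 20 CPM or more. All 13 members at 20 CPM or more were below 0 beside ACC and 12 of them beside ABA, while 3 and 0 were called. Of all genes tested, 1.73% and 1.28% were called lower. The 91 members with an ACC mean below the controls had a median of -0.28 beside ACC, and the 20 above had -0.42. Beside ABA the median was -0.16 in the 68 members with an ABA mean below the controls and -0.17 in the 43 above. These hormone means were used by the rule and are 1 arm of the fold changes.

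The 2 kinds of control were also compared. For ethanol against water 0 members were called, as were 0.0% of all genes tested, while 5 members (and 5.34% of all genes tested) reached an unadjusted p below 0.05. DESeq2 called 0 as well. The ethanol mean was above the water mean in 56 members and below it in 55, and the median log2 fold change was 0.01. The lowest of the 5 control libraries was a water library in 68 members and an ethanol library in 43. With water as the only control the rule chose 146 genes, of which 77 were among the 111.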

How the data were processed

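Whole-seedling RNA from 20 libraries in 7 treatment groups was analysed. The table deposited by the authors holds unnormalized counts of reads for each gene model, in 1 column per library with no pooling. The submitters' processing notes list STAR 2.7.10a. Not given in the sources used here are the counter, its strand setting, the build and the annotation. Reads of near-identical, overlapping or antisense genes may therefore be split or shared between them. Totals were 18614220 to 27101622 counts. There were 0 rows without an identifier and 0 unused columns of counts. Identifiers were looked up in a RefSeq gene table (Lsat_Salinas_v11), with 0 matches.

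Genes kept by filterByExpr (minimum count of 10; 23413 genes, all 111 members among them) were fitted with edgeR 4.0.16 in R 4.3.3, with TMM factors from 0.961 to 1.03 and group means over all 20 libraries. Quasi-likelihood tests were two-sided, with Benjamini-Hochberg adjustment over all genes tested and calls at an adjusted p below 0.05. The common biological coefficient of variation was 0.117. Standard errors are the absolute log2 fold change over the square root of F. Fold changes use TMM factors, and CPM uses library totals as the rule does. The script was tested on simulated data. DESeq2 1.42.0 was an alternative.

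The members, the mirrored list and the tests were chosen with earlier results of these data known. Members named by identifier were, in each comparison, at most the 2 lowest and 2 highest fold changes among calls, the 2 lowest against water, the 2 with the highest mean CPM, those called beside both hormones, and those nearest the limit of the rule.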

Additional observations from a re-analysis of the deposited data

How the results depend on the processing

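The directions of the list medians and the absence of members called higher beside either hormone held under every alternative in which they were computed. Every list was chosen with ABA and ACC held near controls that were required to be high. That the directions held is therefore a description. With only the libraries compared in the fit, the members called lower were 2 beside ABA, 8 beside ACC and 14 for CLE12p against water (1.80%, 7.21% and 12.6% of the list, where 1.82%, 2.01% and 0.463% of all genes were called lower). Between the combinations 15 were called (13.5%, beside 18.2% of all genes). DESeq2 called 7, 13 and 45 lower (6.31%, 11.7% and 40.5%, beside 1.76%, 1.86% and 1.44% of all genes), and 1 for the difference between the backgrounds (0.901%, beside 2.20%). A limit of -0.3 in place of -0.4 chose 259 genes, with 14 (5.41%) called lower beside ABA and 24 (9.27%) beside ACC. The median beside ACC was -0.22. A limit of -0.5 chose 47 genes, with 4 (8.51%) and 8 (17.0%) called and medians of -0.27 and -0.41. Of all genes tested, 1.28% were called lower beside ABA and 1.73% beside ACC.

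Leaving out 1 library at a time gave 106 to 443 members. Beside ABA 0 to 5 were called lower (up to 4.50%, where 0.265% to 1.42% of all genes were). Beside ACC it was 5 to 14 (4.50% to 12.6%, where 0.641% to 1.48% of all genes were). Between the combinations 17 to 27 were called (15.3% to 24.3%), near the 18.1% to 20.7% of all genes. For the difference between the backgrounds 0 to 1 were called, and 10 to 27 were called lower against water. No share of all genes is set beside these last counts here, and nothing is read from them. Medians were -0.21 to -0.11 beside ABA and -0.33 to -0.28 beside ACC. Lists chosen without 1 CLE12p library, added after seeing the data, had 6 to 12 members called lower beside ABA and 12 to 24 beside ACC, with medians from -0.18 to -0.13 and from -0.27 to -0.16 (-0.23 without CLE12p replicate 3). The list chosen without CLE12p replicate 2 had 12 (2.71%) and 24 (5.42%) of 443, with medians of -0.13 and -0.16. In the fit of all 20 libraries, 1.28% of all genes tested were called lower beside ABA and 1.73% beside ACC. With TMM factors in the rule 90 genes were chosen, 85 of them members.

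The deviations of same-numbered libraries from their group means correlated at -0.108 to 0.0177, so no shift shared by replicate number was seen. With 2 or 3 libraries in a group, this check cannot exclude a shared batch. With the replicate number as a block, 6 members were called lower beside ABA, 10 beside ACC and 23 against water (5.41%, 9.01% and 20.7%, beside 1.02%, 1.50% and 0.833% of all genes), and 21 between the combinations (18.9%, beside 21.2%). By abundance, 1 of 48 members under 5 CPM and 0 of 13 at 20 CPM or more were called beside ABA, and 3 of each beside ACC. Of all genes tested, at any abundance, 1.28% were called lower beside ABA and 1.73% beside ACC.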
